A study of Homo sapiens with 21 samples.

Results

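The accessible chromatin of neuroblastoma cells carrying one combination of hairpins against ARID1A and ARID1B was compared with that of cells carrying another combination against the same 2 genes. The groups were shARID1A/B.2.3 and shARID1A/B.4.2, with 3 libraries each, so that 6 of the 21 libraries of the study were compared over 367900 sites, of which 357029 passed a filter on low counts and were tested. The cells were of the established human neuroblastoma line SK-N-BE(2), transduced with lentiviral short hairpin RNAs (shRNAs) and assayed by ATAC-seq after 72 h. The other groups were Control, shARID1A.2, shARID1A.4, shARID1B.2 and shARID1B.3, with 3 libraries each, and the Control vector is not described further in the labels. Read from the group names, shARID1A/B.2.3 joins ARID1A hairpin 2 with ARID1B hairpin 3, and shARID1A/B.4.2 joins ARID1A hairpin 4 with ARID1B hairpin 2, so the combinations have no hairpin in common. All 7 groups are bulk cultures of 1 cell line, described as biological triplicates, the 6 libraries held 22030968 to 40953070 reads in sites, and ATAC-seq holds no RNA or protein with which to check the silencing.

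ARID1A and ARID1B are alternative large subunits of the BAF chromatin remodelling complex, which slides and evicts nucleosomes and keeps many enhancers open. In ATAC-seq a transposase cuts DNA that is free of nucleosomes, so that more open sites collect more reads. A short hairpin can also act on transcripts other than its target, which is why a study commonly uses more than 1 hairpin per gene; a site that differs between combinations aimed at the same genes differs by hairpin, by the degree of silencing or by the culture, and these cannot be told apart here. Throughout, "lower" and "higher" mean lower or higher in shARID1A/B.2.3 than in shARID1A/B.4.2, at a false discovery rate (FDR) under 0.01 in the edgeR quasi-likelihood test, and values of single sites are CPM, the read count relative to the library total, after scaling by the trimmed mean of M-values (TMM).

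The 10 largest falls and the 10 largest rises between the combinations were mostly distal, and all of them were called in the same direction between the single hairpins of the same pairs. The central 300 bases of 6 of the sites described are shown, since the comparison turns on them. Each is the plus strand of hg38, 5′ to 3′, named by its nearest gene, and capitals mark matches on either strand to the motifs whose letters are given with their shares at the end. The 3 sites that were more open in shARID1A/B.4.2 read as follows.
LOC100507577 site, chr16:48300281-48300580: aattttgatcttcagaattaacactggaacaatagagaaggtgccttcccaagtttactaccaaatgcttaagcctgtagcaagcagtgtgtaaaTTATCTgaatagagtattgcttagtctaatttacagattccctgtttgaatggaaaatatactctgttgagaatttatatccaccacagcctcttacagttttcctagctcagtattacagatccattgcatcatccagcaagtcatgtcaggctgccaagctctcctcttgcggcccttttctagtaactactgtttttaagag
ARHGEF2 site, chr1:155983544-155983843: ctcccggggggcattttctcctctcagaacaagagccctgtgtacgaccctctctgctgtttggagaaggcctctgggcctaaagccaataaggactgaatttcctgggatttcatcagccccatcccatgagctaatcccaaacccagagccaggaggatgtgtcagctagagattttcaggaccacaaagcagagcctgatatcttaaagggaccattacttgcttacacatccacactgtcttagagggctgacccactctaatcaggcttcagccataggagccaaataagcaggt
MIR297 site, chr4:111296562-111296861: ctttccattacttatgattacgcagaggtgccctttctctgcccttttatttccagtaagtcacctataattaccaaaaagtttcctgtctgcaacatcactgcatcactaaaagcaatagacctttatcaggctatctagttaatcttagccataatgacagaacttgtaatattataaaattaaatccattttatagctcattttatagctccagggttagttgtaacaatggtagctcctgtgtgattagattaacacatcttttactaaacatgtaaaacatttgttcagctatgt
The 3 sites that were more open in shARID1A/B.2.3 read as follows.
CCDC122 site, chr13:43662388-43662687: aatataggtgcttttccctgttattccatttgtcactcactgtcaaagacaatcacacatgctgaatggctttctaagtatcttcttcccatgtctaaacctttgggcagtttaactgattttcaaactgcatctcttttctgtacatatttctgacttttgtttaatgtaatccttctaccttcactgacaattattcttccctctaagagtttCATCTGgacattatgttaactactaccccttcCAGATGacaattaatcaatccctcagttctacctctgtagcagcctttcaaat
LOC101928684 site, chr3:176935239-176935538: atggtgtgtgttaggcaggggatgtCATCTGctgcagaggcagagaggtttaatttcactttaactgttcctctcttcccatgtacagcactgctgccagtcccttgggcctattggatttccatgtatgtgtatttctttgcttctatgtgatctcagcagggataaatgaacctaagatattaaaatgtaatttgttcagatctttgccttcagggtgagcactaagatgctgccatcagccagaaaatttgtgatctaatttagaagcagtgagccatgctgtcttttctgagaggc
BTLA site, chr3:112446430-112446729: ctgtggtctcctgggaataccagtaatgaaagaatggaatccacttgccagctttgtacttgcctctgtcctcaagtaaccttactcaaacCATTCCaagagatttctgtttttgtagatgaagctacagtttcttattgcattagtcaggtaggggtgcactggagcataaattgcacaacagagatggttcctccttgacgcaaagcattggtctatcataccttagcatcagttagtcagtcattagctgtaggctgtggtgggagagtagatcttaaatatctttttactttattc
An E-box match was found 2 times in the CCDC122 window and 1 time in the LOC101928684 window, a GATA match 1 time in the LOC100507577 window and a TEAD match 1 time in the BTLA window. The ARHGEF2 window held none of them. A match is a description of the letters and not a bound site.

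The largest fall was at chr15:30845439-30847533, in an intron of FAN1, a DNA repair nuclease, 28450 bases from the assigned start of HERC2P10. It measured 0.821, 0.697 and 1.14 CPM in shARID1A/B.2.3 and 7.39, 6.81 and 6.68 CPM in shARID1A/B.4.2. The groups did not overlap, and the log2 difference was -3.03 (SE 0.17, FDR 8.37e-27). The site measured 0.813 ± 0.0712 CPM in Control (SD, n = 3) and 7.46 ± 0.707 CPM with shARID1B.2 alone. HERC2P10 belongs to a family of near-identical copies on chromosome 15, and reads there may be split between copies. At chr16:48300019-48300844, in an intron of LONP2, a peroxisomal protease, the values were 0.394, 0.372 and 0.308 CPM against 3.14, 2.35 and 3.11 CPM. At chr1:155983195-155984195 they were 1.61, 1.56 and 2.24 CPM against 13, 13 and 12.5 CPM, a log2 difference of -2.87 (SE 0.14, FDR 1.45e-30). This site is classed as a promoter of ARHGEF2, an exchange factor that activates RhoA, and lies 12632 bases from the start assigned to that gene. With the hairpins of the shARID1A/B.4.2 pair given singly it measured 5.83 ± 0.443 CPM with shARID1A.4 and 10.7 ± 0.395 CPM with shARID1B.2, against 1.81 ± 0.474 CPM in Control.

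The fall of smallest p was an intergenic site at chr4:111296160-111297265, 436068 bases from MIR297, a microRNA gene. It measured 4.01, 4.18 and 3.87 CPM in shARID1A/B.2.3 and 25.2, 25.9 and 24.2 CPM in shARID1A/B.4.2, a log2 difference of -2.63 (SE 0.12, FDR 7.72e-33). It was also low with shARID1A.2 alone, at 2.85 ± 0.845 CPM, and stood at 22.1 ± 0.766 CPM with shARID1A.4, 22 ± 2.35 CPM with shARID1B.2, 20.4 ± 1.81 CPM with shARID1B.3 and 16.2 ± 1.79 CPM in Control. The ARID1A hairpins differed there by -2.96 (log2, FDR 3.97e-33) and the ARID1B hairpins by -0.1 (FDR 0.598), and the difference between these values was not tested.

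**Figure D1:**
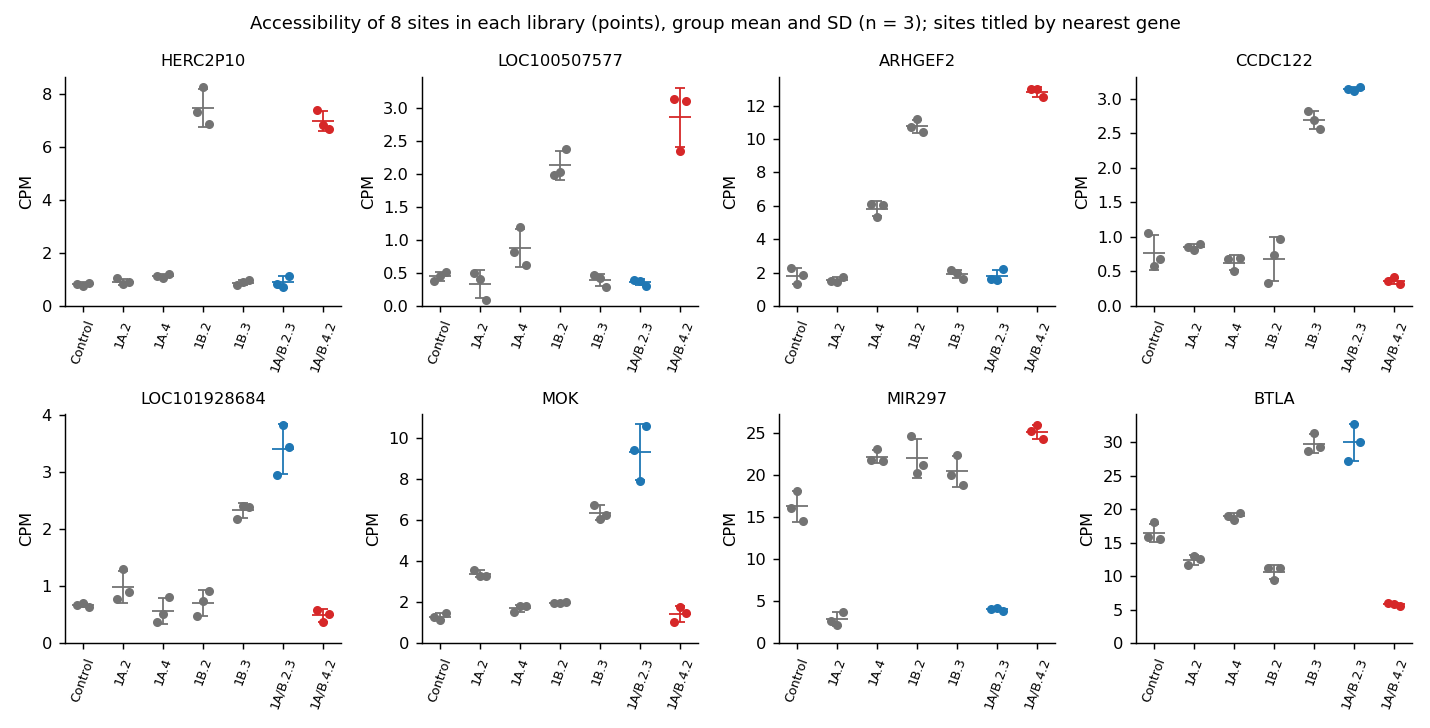
Accessibility in CPM (y axis, from 0) of 8 sites (the first 3 falls, the first 3 rises and the sites of smallest p), in each of the 7 groups (x axis, written without "shARID"); points are libraries and bars are the mean and SD (n = 3). At the MIR297 site the shARID1A/B.2.3 libraries sit between 3.87 and 4.18 CPM and the shARID1A/B.4.2 libraries between 24.2 and 25.9 CPM.

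Rises were of the same kind. At chr13:43661862-43663215, in an intron of ENOX1 with CCDC122 as the nearest gene, the values were 3.15, 3.11 and 3.17 CPM in shARID1A/B.2.3 and 0.358, 0.414 and 0.325 CPM in shARID1A/B.4.2, a log2 difference of 3.08 (SE 0.25, FDR 2.06e-17). With shARID1B.3 alone this site measured 2.69 ± 0.128 CPM, against 0.772 ± 0.254 CPM in Control. At chr14:102277603-102278930, in an intron of the kinase gene MOK, the values were 9.42, 7.9 and 10.6 CPM against 1.03, 1.79 and 1.48 CPM, with 3.38 ± 0.169 CPM for shARID1A.2 and 6.36 ± 0.358 CPM for shARID1B.3. The site of smallest p among the rises lay between genes at chr3:112445995-112447167, 53009 bases from BTLA, an inhibitory receptor of lymphocytes. It measured 27.1, 32.7 and 30 CPM against 5.96, 5.89 and 5.52 CPM (log2 difference 2.37, SE 0.11, FDR 1.34e-32). Here the single hairpins went in opposite directions, with 12.4 ± 0.739 CPM for shARID1A.2 and 18.9 ± 0.455 CPM for shARID1A.4, but 29.8 ± 1.4 CPM for shARID1B.3 and 10.6 ± 1.01 CPM for shARID1B.2.

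Other genes near the 10 largest rises included MAOA, which degrades catecholamines, and MDM2, the ubiquitin ligase of p53. The site upstream of MAOA measured 5.52, 5.78 and 5.23 CPM in shARID1A/B.2.3 and 1.03, 1.1 and 0.696 CPM in shARID1A/B.4.2. The site assigned to MDM2, in an intron of CPM (carboxypeptidase M), measured 4.76, 4.99 and 4.75 CPM against 0.806, 0.874 and 1.02 CPM, and 3.46 ± 0.151 CPM in Control, so that the shARID1A/B.4.2 libraries were the low ones. The other 5 rises lay near LOC101928684, LINC00102, LOC102724763, MGC39545 and AKR1E2, and the other 7 falls near AFF3, LINC00871, DLGAP1-AS1, LOC101927840, RNF187, LOC101929112 and RP11-756H20.1. Of the 10 falls, 7 were intronic, 2 intergenic and 1 in the promoter class, and of the 10 rises 6 were intronic and 4 intergenic. Set against Control, all 10 falls were higher in shARID1A/B.4.2 and 2 of them were lower in shARID1A/B.2.3. All 10 rises were higher in shARID1A/B.2.3 than in Control and 4 were lower in shARID1A/B.4.2. Both comparisons use the same Control libraries, and the sites were chosen by the difference between the same combination libraries. Of all 357029 tested sites, 37030 were lower and 10172 higher in shARID1A/B.2.3 than in Control. In shARID1A/B.4.2 these numbers were 26324 and 14171.

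Over all tested sites, 13521 were lower (3.79% of those tested) and 5113 were higher (1.43%). The median log2 difference was -0.72 at the lower sites and 0.86 at the higher sites, and 3179 and 1800 of them differed by at least 1 on the log2 scale. In 88733 sites, 24.9% of those tested, the 3 libraries of one group did not overlap those of the other. The lower sites had a median of -0.6 in shARID1A/B.2.3 against Control and 0.23 in shARID1A/B.4.2 against Control, and the higher sites 0.39 and -0.5, side by side with shared Control libraries. The balance of falls to rises depended on scaling: falls were 72.6% of the calls with TMM, 54.6% with total counts, 58.1% with offsets that follow abundance and 35.3% when libraries were scaled on promoter sites, where 6443 sites were lower, 11832 were higher and the median over all sites moved from 0.02 to 0.21. With all of TMM, promoter, total-count, abundance and GC scaling, 6346 sites were lower and 4469 were higher. Replicate 2 of shARID1A/B.2.3, the deepest of the 6 libraries, stood apart from the other libraries of its group (chi-square of 2.47 and 2.19 per degree of freedom against replicates 1 and 3, and 1.09 between those), and without it 8777 sites were lower and 3502 were higher.

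The same contrast was then read in libraries that share none of the 6, by adding the difference between the ARID1A hairpins (shARID1A.2 minus shARID1A.4) to that between the ARID1B hairpins (shARID1B.3 minus shARID1B.2). This single-hairpin difference called 10389 sites lower (2.91%) and 4147 higher (1.16%). Of the 13521 sites lower between the combinations, 6087 (45%) were also lower between the single hairpins and 0 were higher; they made up 58.6% of the sites lower between the single hairpins. Of the 5113 higher sites, 1777 (34.8%) were also higher, 42.9% of that list, and 12 were lower. The median single-hairpin difference was -0.68 at the lower sites and 0.71 at the higher sites, against 0 over all sites, and its sign was that of the combinations at 96.6% and 91.4% of them, where 49.9% and 50.1% of all sites have that sign. Across the 357029 sites, which share libraries, depth and base composition and are not independent, the correlation was 0.38. Without replicate 2 of shARID1A/B.2.3 the shares were 59.6% of the lower and 49.3% of the higher sites, and with promoter scaling 68.1% and 21%.

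**Figure D2:**
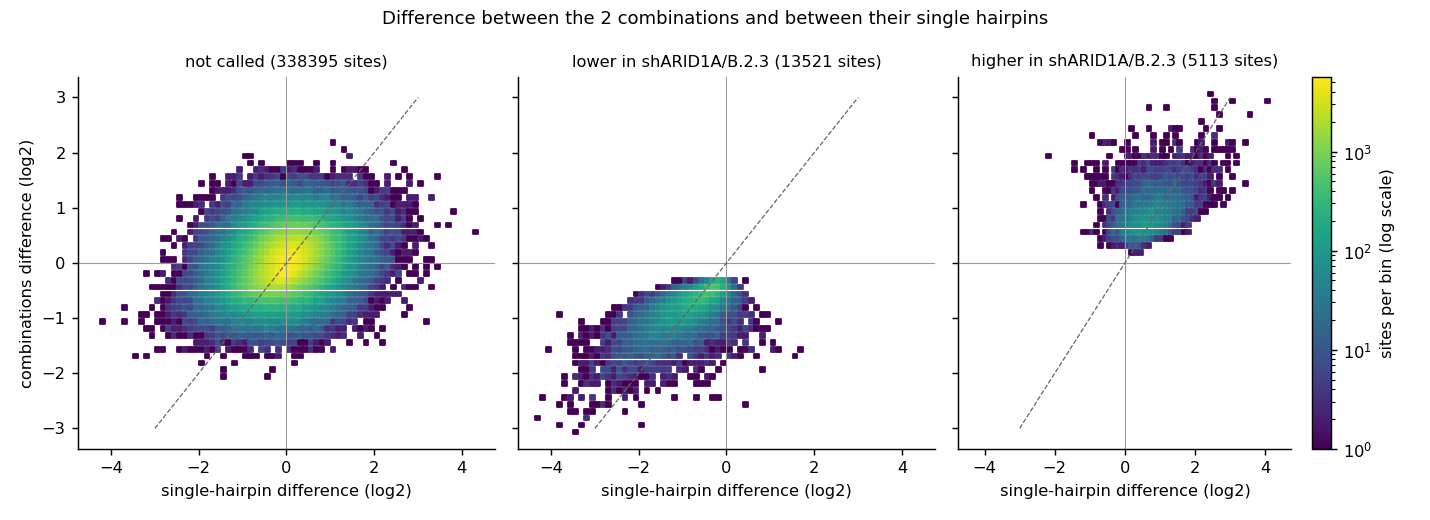
Each bin is coloured by the number of sites it holds (log scale), with the single-hairpin difference on the x axis and the combinations difference on the y axis, both log2; the dashed line marks equal values. The 13521 lower sites lie mostly to the left of 0 and the 5113 higher sites mostly to the right.

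Taken by target gene, the ARID1B hairpins differed at more sites than the ARID1A hairpins: 15173 lower (4.25%) and 10572 higher (2.96%) against 6557 lower (1.84%) and 2631 higher (0.737%). The shARID1B.3 libraries held up to 44472230 reads in sites, the deepest of the series, and the part of depth in these counts was not tested. Of the sites lower between the combinations, 4380 (32.4%) were lower between the ARID1B hairpins and not called lower between the ARID1A hairpins, 1860 (13.8%) the reverse, 1172 (8.67%) were lower in both and 6109 (45.2%) in neither. Of the higher sites, 1849 (36.2%) were higher between the ARID1B hairpins only and 500 (9.78%) between the ARID1A hairpins only. Another 148 (2.89%) were higher between both and 2616 (51.2%) between neither. Whether the gene-wise shares differ was not tested. Of the 10 largest falls, all 10 were lower in the single-hairpin difference, 10 between the ARID1B hairpins and 6 between the ARID1A hairpins, and of the 10 largest rises 10, 7 and 6.

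A departure from the sum of the single hairpins was tested as 1 contrast: 41 sites (0.0115%) were lower and 320 (0.0896%) higher than the single hairpins gave. Both counts moved with the setting, to 22 and 1196 with promoter scaling, 79 and 717 with abundance offsets, and 16 and 126 without replicate 1 of shARID1A/B.4.2. Of these 361 sites, 194 were among the 18634 called between the combinations, 1.04% of those. Among the 320, 307 had a negative single-hairpin difference, with a median of -1.52, while the median between the combinations was -0.24. The departure subtracts the single-hairpin difference, so choosing sites by a positive departure favours negative values of it. These values describe the chosen sites only. The ARHGEF2 site departed by 1.47 (FDR 0.00128), since the single hairpins gave -4.34 and the combinations -2.87. The BTLA site departed by 1.5 (FDR 6.43e-08), where the single hairpins gave 0.87 and the combinations 2.37.

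By annotation class, promoter sites held the highest share of falls. Of 12310 promoter-TSS sites 1688 (13.7%) were lower and 108 (0.877%) higher, of 12435 exonic sites 904 (7.27%) and 85 (0.684%), of 153781 intronic sites 6776 (4.41%) and 1832 (1.19%), of 4436 transcription termination sites 207 (4.67%) and 53 (1.19%), and of 173881 intergenic sites 3946 (2.27%) and 3034 (1.74%). The median difference went from -0.17 at promoters to 0.1 between genes. Between the single hairpins 325 promoters (2.64%) were lower and 163 (1.32%) higher, with a median of 0, and whether the promoter medians of the combinations and the single hairpins differ was not tested. With promoter scaling, which sets the promoters level by construction, 602 promoters were lower and 531 higher, and with abundance offsets 691 and 642. Without replicate 2 of shARID1A/B.2.3, 946 were lower and 86 higher.

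**Figure D3:**
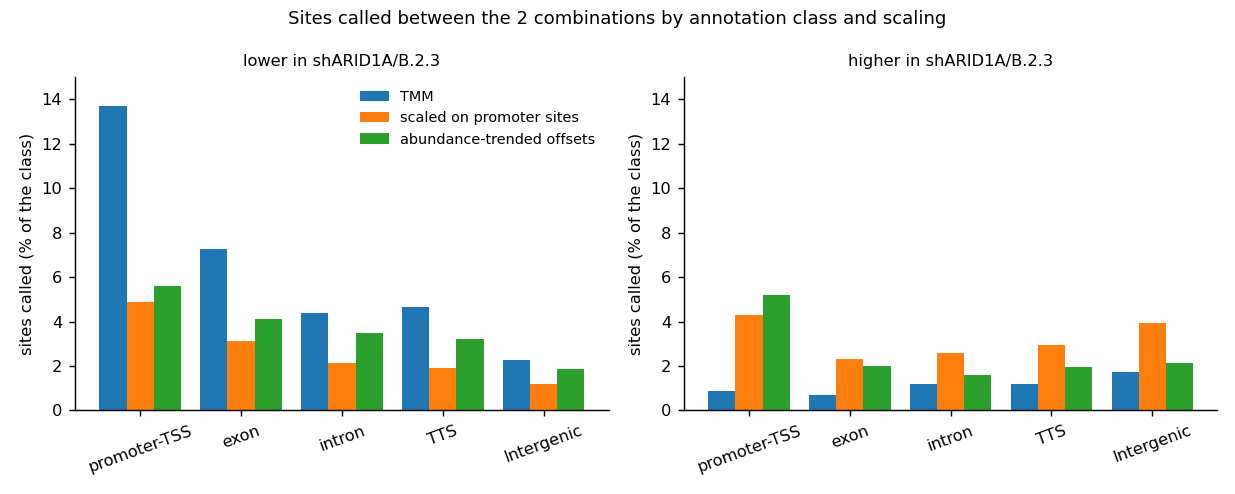
Share of the tested sites of each annotation class (x axis) called lower (left) or higher (right) in shARID1A/B.2.3, in percent of the class, with bars for 3 scalings. Lower promoters are 13.7% of the class with TMM and fewer with the other scalings.

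The same shift was seen in the reads. Promoter sites took 23.7 ± 0.332% of the reads in shARID1A/B.2.3, 25 ± 0.118% in shARID1A/B.4.2 and 20.3 ± 0.308% in Control, and intergenic sites 34 ± 0.91%, 31.5 ± 0.151% and 35.2 ± 0.746% (SD, n = 3). The 3 libraries of one combination did not overlap those of the other for promoter, exon, intron and intergenic shares. The two-sided exact permutation p was 0.1 for each of these 4, the smallest that 3 against 3 libraries can give, and 0.125 after adjustment over the 5 classes. For transcription termination sites it was 0.4.

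The difference also ran with abundance and distance. From the lowest to the highest decile of mean abundance the median went from 0.12 to -0.19. In the top decile 21.4% of the sites were lower and 4.16% higher, against 0.269% and 0.227% in the bottom one. Both shares rose with abundance, and the part of read depth in them was not tested. Within 1 kb of a transcription start the median was -0.17 and beyond 500 kb 0.24. By base composition falls were most frequent at both ends: in the decile richest in G and C 8.84% of sites were lower and 0.434% higher, and in the poorest 6.81% and 2.59%. The medians were -0.14 and -0.01 there, and up to 0.07 in the deciles between them. Without replicate 2 of shARID1A/B.2.3 the abundance medians ran from 0.06 to -0.16, the median beyond 500 kb was 0.09, and the medians of the richest and poorest GC deciles were -0.07 and -0.08. Between the single hairpins the abundance medians ran from 0.02 to -0.08.

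**Figure D4:**
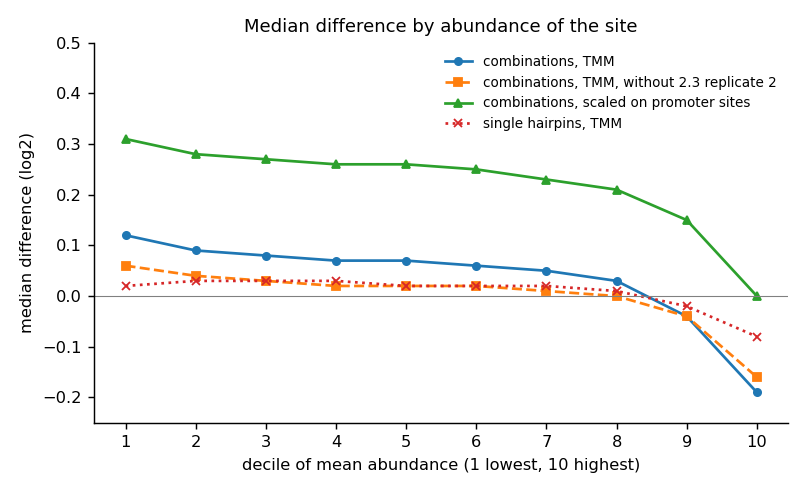
Median log2 difference (y axis) of the sites in each decile of mean abundance (x axis, 10 highest) for the combinations with TMM, without shARID1A/B.2.3 replicate 2 and with promoter scaling, and for the single hairpins. With TMM the line falls from 0.12 to -0.19, and with promoter scaling from 0.31 to 0.

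Chromosomes differed in their medians. The lowest were on chromosomes 19 (-0.29), 22 (-0.27), 15 (-0.24) and 17 (-0.2), and the highest on chromosomes 4 (0.13), 13 (0.12) and 6 (0.1). Without replicate 2 of shARID1A/B.2.3 these were -0.17, -0.15, -0.19 and -0.13, and 0.06, 0.09 and 0.05, so that chromosome 15 was then the lowest and 13 the highest. Over 23 chromosomes the median difference had a correlation of -0.91 with the median GC content of the sites (-0.8 without replicate 2), given as a description. Summed over windows of 5 Mb with at least 50 tested sites, 69 of 590 windows were lower (11.7%) and 38 higher (6.44%). The lowest was chr19:30-35 Mb, at 767.4, 613.1 and 766.8 CPM in shARID1A/B.2.3 and 943, 931.1 and 951.5 CPM in shARID1A/B.4.2 (log2 difference -0.4, SE 0.09, FDR 0.0022). Replicate 2 was the low library there, and without it the difference was -0.3 with an FDR of 0.0118. The window at chr15:85-90 Mb (-0.34, FDR 1.03e-05) and that at chr13:105-110 Mb (0.31, FDR 2.44e-07) kept their calls without it, at -0.29 (FDR 1.54e-05) and 0.32 (FDR 6.47e-07). The highest window was chr4:130-135 Mb (0.39, FDR 0.00216), which without replicate 2 measured 0.29 with an FDR of 0.0128. The window at chr2:15-20 Mb holds MYCN, a transcription factor gene often amplified in neuroblastoma, and the paper describes SK-N-BE(2) as MYCN-amplified. This window held 47070 ± 3380 CPM in shARID1A/B.2.3, 42820 ± 680 CPM in shARID1A/B.4.2 and 47190 ± 4570 CPM in Control (SD, n = 3). It differed by 0.14 (SE 0.06, FDR 0.117), and was called higher under promoter scaling at 0.22 (FDR 0.00356). Without replicate 2 it measured 0.2 (FDR 0.0374). The part of copy number in these reads was not tested.

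**Figure D5:**
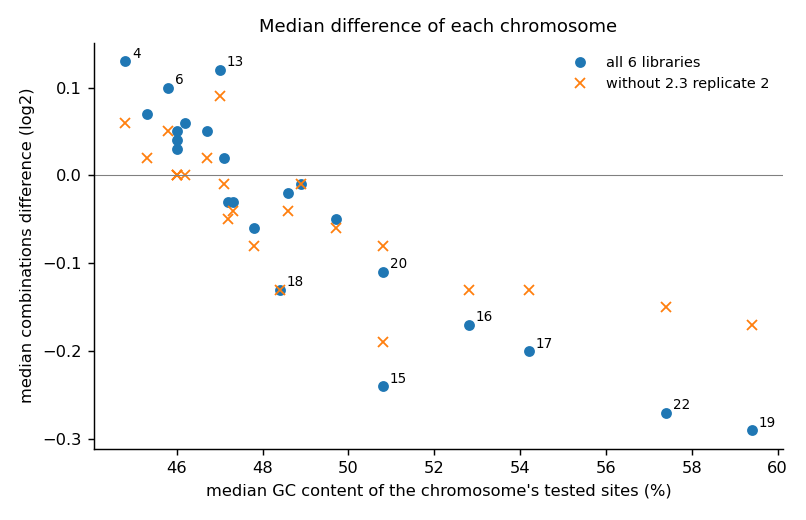
Median log2 difference between the combinations (y axis) of each chromosome's tested sites against the median GC content of those sites (x axis, percent), with and without shARID1A/B.2.3 replicate 2. Chromosomes 19, 22, 15 and 17 are lowest, at -0.29 to -0.2.

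Summed over all sites assigned to a gene, 2042 of 26743 genes were lower (7.64%) and 1622 higher (6.07%). Among genes with at least 5 tested sites, the smallest p values of the falls were at SLC16A6, a member of the monocarboxylate transporter family, CDC42EP3, an effector of the GTPase CDC42, GAS7, BCL2L13, a mitochondrial member of the BCL2 family, and LOC284648. SLC16A6 summed to 35.3, 35.5 and 36.2 CPM in shARID1A/B.2.3 and 62, 61.1 and 64.3 CPM in shARID1A/B.4.2 (log2 difference -0.81, SE 0.04, FDR 3.61e-10), and its sum was 61.1 ± 1.19 CPM with shARID1A.4 and 38.7 ± 1.45 CPM in Control. CDC42EP3, with 18 of 47 sites lower and 0 higher, summed to 171, 166 and 176 CPM against 273, 279 and 266 CPM. At BCL2L13 the sums were 14.5, 14.5 and 15.9 CPM against 29.3, 29 and 30 CPM, and 30.2 ± 0.982 CPM with shARID1B.2. Fewer sites were called at the other genes: 1 of 6 was lower at SLC16A6, 3 of 15 at GAS7, 2 of 5 at BCL2L13 and 3 of 5 at LOC284648.

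The smallest p values of the rises were at IKBKE, a kinase of innate immune signalling, SLC2A1, the glucose transporter GLUT1, PRSS55, LINC00882 and LOC152225. IKBKE summed to 57.2, 56.5 and 62.4 CPM in shARID1A/B.2.3 and 33.6, 33.7 and 33.8 CPM in shARID1A/B.4.2 (log2 difference 0.8, SE 0.05, FDR 4.71e-10), against 82.1 ± 1.45 CPM in Control. SLC2A1 summed to 19.8, 18.9 and 22.1 CPM against 10.3, 9.77 and 10.4 CPM, with 23.6 ± 1.11 CPM in Control. For both genes the shARID1A/B.4.2 libraries were the lowest of the 7 groups by their means. Of the tested sites, 2 of 16 were higher at IKBKE, 3 of 5 at SLC2A1, 2 of 12 at PRSS55, 6 of 24 at LINC00882 and 2 of 12 at LOC152225.

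Lists of genes, chosen with earlier results of these data known, were described by counts beside the 3.79% lower and 1.43% higher of all sites. Near 15 adrenergic transcription factor genes, which hold the noradrenergic identity of the tumour cells, 40 of 380 sites were lower (10.5%) and 5 higher (1.32%), with a median of -0.13. Near 10 catecholamine and granule genes 19 of 164 were lower (11.6%) and 4 higher (2.44%). The intronic site of SLC6A2, the noradrenaline transporter, measured 2.43, 2 and 2.9 CPM in shARID1A/B.2.3 and 8.83, 8.33 and 8.58 CPM in shARID1A/B.4.2, against 13.8 ± 0.789 CPM in Control; with shARID1B.3 it measured 3.55 ± 0.865 CPM. Near the interferon-response genes 18 of 165 sites were lower (10.9%) and 1 higher (0.606%), among them a promoter-class site of the exonuclease gene ISG20 (9.82, 8.94 and 10.2 CPM against 22.5, 23.5 and 25.1 CPM). By gene sums, 1 of the 15 adrenergic factor genes, 2 of the 10 catecholamine and granule genes and 5 of 26 interferon-response genes were lower. In each list 0 were higher. Of all genes 7.64% were lower and 6.07% higher. Under promoter scaling, where 1.8% of all sites were lower and 3.31% higher, these 3 lists had 19 lower (5%) and 11 higher (2.89%), 10 (6.1%) and 7 (4.27%), and 7 (4.24%) and 2 (1.21%) sites. Without replicate 2 of shARID1A/B.2.3, where 2.46% of all sites were lower and 0.981% higher, the lists had 7.89%, 7.93% and 6.06% lower and 1.05%, 2.44% and 0% higher.

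Near the AP-1 genes 11 of 129 sites were lower (8.53%) and 0 higher, and near the genes of G1 phase and its inhibitors 10 of 127 (7.87%) and 3 (2.36%). At CDK6, a kinase of G1, an intronic site was higher, at 17.7, 20.6 and 16.7 CPM against 8.06, 8.61 and 9.23 CPM. Of the 14 CDK6 sites 2 were lower and 1 higher, and their sum differed by -0.01 (FDR 0.931). The counts of both lists moved with the setting, as did those of all sites. Under promoter scaling 1.8% of all sites were lower and 3.31% higher. The AP-1 genes then had 5 lower (3.88%) and 1 higher (0.775%), and the G1 genes 2 (1.57%) and 5 (3.94%). Without replicate 2 of shARID1A/B.2.3 the shares of all sites were 2.46% and 0.981%. The AP-1 genes then had 6 lower (4.65%) and 0 higher, and the G1 genes 4 (3.15%) and 4 (3.15%). Lists close to the background in their counts were integrins (12 lower and 5 higher of 265), mesenchymal transcription factors (16 and 3 of 387) and BAF, PBAF and ncBAF subunits (12 and 3 of 365). Their medians were -0.13, 0.01 and -0.04. Under promoter scaling these had 6 lower and 7 higher, 6 and 11, and 5 and 15, and without replicate 2 the last had 6 and 2. Cadherins had 20 lower and 19 higher of 890 sites and axon guidance genes 66 and 45 of 2019, with medians of 0.13 and 0.12. Promoter scaling turned this balance to 13 lower and 36 higher, and 34 and 88, and without replicate 2 both medians were 0.05. An intronic site of ITGA1, a collagen-binding integrin, measured 2.1, 2.25 and 2.07 CPM against 6.14, 7.13 and 6.91 CPM. Of the 22 ITGA1 sites 1 was lower and 0 higher, and their sum differed by -0.18 (FDR 0.0134). An intergenic site near ITGA4 went the other way, at 9.59, 12.9 and 9.36 CPM against 5.06, 4.88 and 5.05 CPM. Of the 35 ITGA4 sites 0 were lower and 3 higher, and their sum differed by 0.34 (FDR 0.0107). At the targeted genes, the promoter of ARID1A measured 10.5, 8.27 and 9.94 CPM against 9.45, 8.97 and 9.55 CPM (log2 difference 0.03, SE 0.13, FDR 0.932), and the site nearest the start of ARID1B 49.3, 45.6 and 48.7 CPM against 51.8, 50.7 and 53.8 CPM (-0.12, SE 0.08, FDR 0.391).

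Markers were read at the promoter or nearest site. Among the adrenergic markers reported here, DBH, the enzyme that makes noradrenaline, was lower (-0.64, FDR 8.81e-05). PHOX2A (-0.04, FDR 0.845), HAND2 (-0.04, FDR 0.843), GATA3 (-0.29, FDR 0.0482), ISL1 (-0.25, FDR 0.067), TH (-0.23, FDR 0.424) and MYCN (-0.02, FDR 0.963) were not called. ISL1 was read at an exonic site 5125 bases from its start. MYCN was read at an intergenic site 12728 bases away, with 2.28 to 3.09 CPM in the 6 libraries. Neither value is that of a promoter. Of 5 mesenchymal markers 0 were lower or higher. Over all promoter-TSS sites 13.7% were lower and 0.877% higher. Of 3 markers of the HEK293T cells that packaged the virus, EYA4 was lower (37.5 against 52.4 CPM, with 37.7 CPM in Control) and PAX2 and PAX8 were not called. PAX2 and PAX8 held 7.63 and 7.98 CPM in Control. All 3 sites thus held reads in Control too, and a call there cannot tell packaging cells from the line. The part of carried-over packaging DNA in the results was not tested.

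Motifs were counted in the central 300 bases of each site, on both strands. The AP-1 motif (written TGANTCA) was held by 16.5% of the lower, 9.31% of the higher and 10.9% of all tested sites. Away from promoters these shares were 18%, 9.47% and 11.1%. The GC box (written GGGCGG) was held by 22% of the lower, 6.16% of the higher and 9.05% of all tested sites. The letters of the CTCF motif searched (written AGGGGGCGC) overlap with those of the GC box, and 0.836%, 0.841% and 0.359% of the same sets held it. The GATA motif (written AGATAA) was held by 19.5%, 21.7% and 17% of the lower, higher and all sites. For the TEAD motif (written GGAATG) the shares were 13.9%, 17.4% and 16.8% in the same order. The E-box was searched in a first form (written CAGATG) and in a second form (written CAGCTG), and 38.2%, 36.5% and 36.4% of sites held either. For the NRF1 motif (written GCGCATGCG), mostly a promoter motif, the shares were 0.392%, 0.0391% and 0.114%.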

How the data were processed

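ATAC-seq was performed by the authors on SK-N-BE(2) nuclei 72 h after transduction, with 3 libraries in each of 7 groups. Per the labels reads were aligned to GRCh38; for the aligner, the peak caller, their versions and any shifting of reads the entry is: not given in the sources used here. Over 1 consensus set of sites, the authors deposited the raw read count of each library, with normalized values and their own DESeq2 comparisons, which were not used. The deposited HOMER annotation gave class, nearest gene and distance in bases to its start (the only other deposited unit). Starts are printed from that annotation and are 1 above those of the count tables. In the reference used for GC content and sequences (hg38), 91.19% of promoter-TSS sites lay within 1100 bases of a start of their gene.

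The 6 count tables, each holding the Control and 1 other group, were joined by site. The 21 libraries were fitted in 1 model by quasi-likelihood in edgeR (4.0.16; R 4.3.3), using TMM scaling, filterByExpr (minimum count 10), no covariates and Benjamini-Hochberg adjustment; DESeq2 1.42.0 was an alternative. The SE was derived from the test statistic. The combination libraries held 22030968 to 40953070 reads in sites. P-values set a difference against the spread between the triplicate libraries, estimated over all 7 groups. Between the shARID1A/B.4.2 libraries the chi-squares per degree of freedom were 1.08, 1.08 and 1.1, so little spread between cultures was captured there. The fit was also tested on simulated data. Same-numbered libraries of the combinations had correlated deviations of 0, 0.09 and 0.04, so that the numbers did not pair them. Between shARID1B.3 and shARID1A/B.2.3 the values for replicates 1, 2 and 3 were 0.22, 0.03 and -0.14, and whether these groups were handled together was not tested.

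Sites named were the 10 largest falls and rises that passed under TMM and promoter scaling, had a mean of at least 1 CPM and no overlap of groups, 1 per gene; the 2 of smallest p per list; the targeted genes; and the smallest p in each direction. Genes were the 5 of smallest p per direction with at least 5 sites, and windows the 5 lowest and highest and that of MYCN, of which examples are printed. Members and lists were chosen with earlier results of these data known. The split by target gene, and results without replicate 2 of shARID1A/B.2.3 by class, decile, list and window, were added after seeing the data. Some sequences, a marker and a motif are not reported here.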

Additional observations from a re-analysis of the deposited data

Results flagged for a closer look

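The difference between the combinations and the sum of the differences between their single hairpins were set against each other in 1 contrast. It passed an FDR of 0.01 at 41 sites that were lower, and 320 that were higher, than the single hairpins gave. Of the 20 sites with the largest differences, 2 departed in the same test: the site near ARHGEF2 by 1.47 and that near BTLA by 1.5 on the log2 scale.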

How the results depend on the processing

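The calls between the combinations numbered 13521 lower and 5113 higher. At an FDR under 0.05 they were 21981 and 11147, with a log2 difference of at least 1 they were 3179 and 1800, scaled on promoter sites 6443 and 11832, and higher sites were 8317 with total counts and 3137 with DESeq2. Leaving out 1 library at a time gave 8777 to 14104 lower sites, the fewest without replicate 2 of shARID1A/B.2.3, and 3050 to 4476 higher sites; without replicates 1, 2 and 3 of shARID1A/B.4.2 the higher sites were 3050, 3141 and 3167. For the single hairpins, an FDR under 0.05 gave 16134 lower and 8780 higher sites, and a log2 difference of at least 1 gave 6608 lower. Leaving out 1 library gave 8040 to 9742 lower and 3019 to 4112 higher sites.

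Of the departing sites, the 41 lower were 173 at an FDR under 0.05, 22 with promoter scaling, 79 with abundance offsets and 107 with GC offsets; the 320 higher were 787 at an FDR under 0.05, 549 with total counts, 1196 with promoter scaling and 717 with abundance offsets. Leaving out 1 library gave 16 to 40 and 126 to 302, the fewest without replicate 1 of shARID1A/B.4.2. Gene sums ranged from 1314 to 1806 lower and 837 to 1724 higher on leaving out 1 library; the lower fell to 1336 and 1314 without replicates 1 and 3 of shARID1A/B.4.2, and the higher to 837, 931 and 855 without its replicates 1, 2 and 3 and 914 without replicate 2 of shARID1A/B.2.3. Windows ranged from 41 to 71 lower and 25 to 43 higher, the fewest without replicate 1 and replicate 3 of shARID1A/B.4.2, with 23 lower under promoter scaling, and windows of 2 Mb gave 148 lower and 123 higher. Read shares kept their direction, from -1.49 to -1.17 points for promoters and 1.97 to 2.84 for intergenic sites.

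With the replicate block the combinations gave 15091 lower and 5578 higher sites, the departure 61 and 425, gene sums 2284 and 1948 and windows 82 and 45; the replicate block with GC offsets gave 153 lower departing sites. Of 43 named sites the direction turned at 2, neither of them called: ARID1A, which ranged from -0.07 to 0.12 on leaving out 1 library, and ARID1B at 0.06 with promoter scaling and 0.09 with abundance offsets. Promoter scaling also turned the sign of uncalled differences from Control near HERC2P10 (-0.07) and MOK (-0.18). The causes were not tested.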

Other observations

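Of the departing sites, those of smallest p were singled out after their values were seen. Near BRD7P3, at chr6:118276864-118278563, the combinations differed by 0.55 and the single hairpins by -0.92 (log2 departure 1.47, SE 0.16, FDR 9.37e-09). Near HTR1E, a serotonin receptor gene, at chr6:86499512-86500570, they differed by -1.13 and -3.29 (departure 2.16, SE 0.27, FDR 2.16e-07).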
